A study of Homo sapiens with 6 samples.

Results

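RAB proteins are small GTPases that mark the membranes of the cell, and proteins with a TBC domain switch them off. Both families were followed after over-expression of *USF1*, whose product is a transcription factor of the helix-loop-helix kind that recognizes E-boxes. A gene was included where the platform annotation gave a probeset of 1 gene whose symbol was RAB followed by digits, with or without letters after them, or began with TBC1D. This rule, which uses no measured value, gave 66 genes, 42 of them RAB and 24 TBC1D genes, among 9586 named genes on the arrays. One of the 42, *RAB3IP*, encodes a RAB exchange factor and not a GTPase. The 66 genes had 116 probesets, and the probeset with the highest mean over all arrays stood for each gene. The cells were HEK293T, an established line from human embryonic kidney with the large T antigen of SV40. In the USF1 group (n = 3 arrays) the cells were transiently transfected with a plasmid that holds the coding region of *USF1* behind a histidine tag, and in the Empty vector group (n = 3 arrays) with the plasmid alone. Total RNA was taken 48 hours later in both groups. The cells also make USF1 of their own, and the sources used here do not give the share that took up the plasmid. Values are RMA expression on the log2 scale as the authors deposited them, and a difference is USF1 minus Empty vector, so that 1 unit is a doubling.

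A RAB protein cycles between an inactive GDP-bound and an active GTP-bound form. Exchange factors load GTP, the active RAB recruits effectors such as motor adaptors, tethers and lipid phosphatases to its membrane, and GTPase-activating proteins, most of which share the TBC domain, end the signal. Each RAB has its own address: RAB1 and RAB2 act between the endoplasmic reticulum and the Golgi, RAB5 on early endosomes, RAB7 and RAB9 on late endosomes, RAB11 on recycling endosomes, RAB8 and RAB10 on carriers to the cell surface, and RAB3 and RAB27 on secretory granules.

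Most genes of both families changed little. With limma and a threshold of 0.05 on the adjusted p-value, 4 of the 66 genes rose and 5 fell, together 13.6%, where 14.1% of all named genes passed in the same fit (5.18% higher and 8.89% lower). Over all probesets, several for some genes, 11.9% passed. The share of RAB and TBC1D genes that passed was thus close to that of all genes. *TBC1D30*, *RAB9B*, *TBC1D4* and *RAB20* rose, and *TBC1D7*, *RAB9A*, *RAB27A*, *TBC1D15* and *RAB8A* fell. The median difference was -0.067 over the 66 genes (-0.043 for RAB, -0.12 for TBC1D) and -0.079 over all named genes. The USF1 arrays lay above all Empty vector arrays in 12 genes and below them in 15, together 40.9%, against 40.2% of all named genes. An unadjusted p-value from limma under 0.05 was found for 23 of the 66 genes, a share close to that of all genes (3307 of 9586). Of the 57 genes that did not pass, 14 were among these 23.

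**Figure D1:**
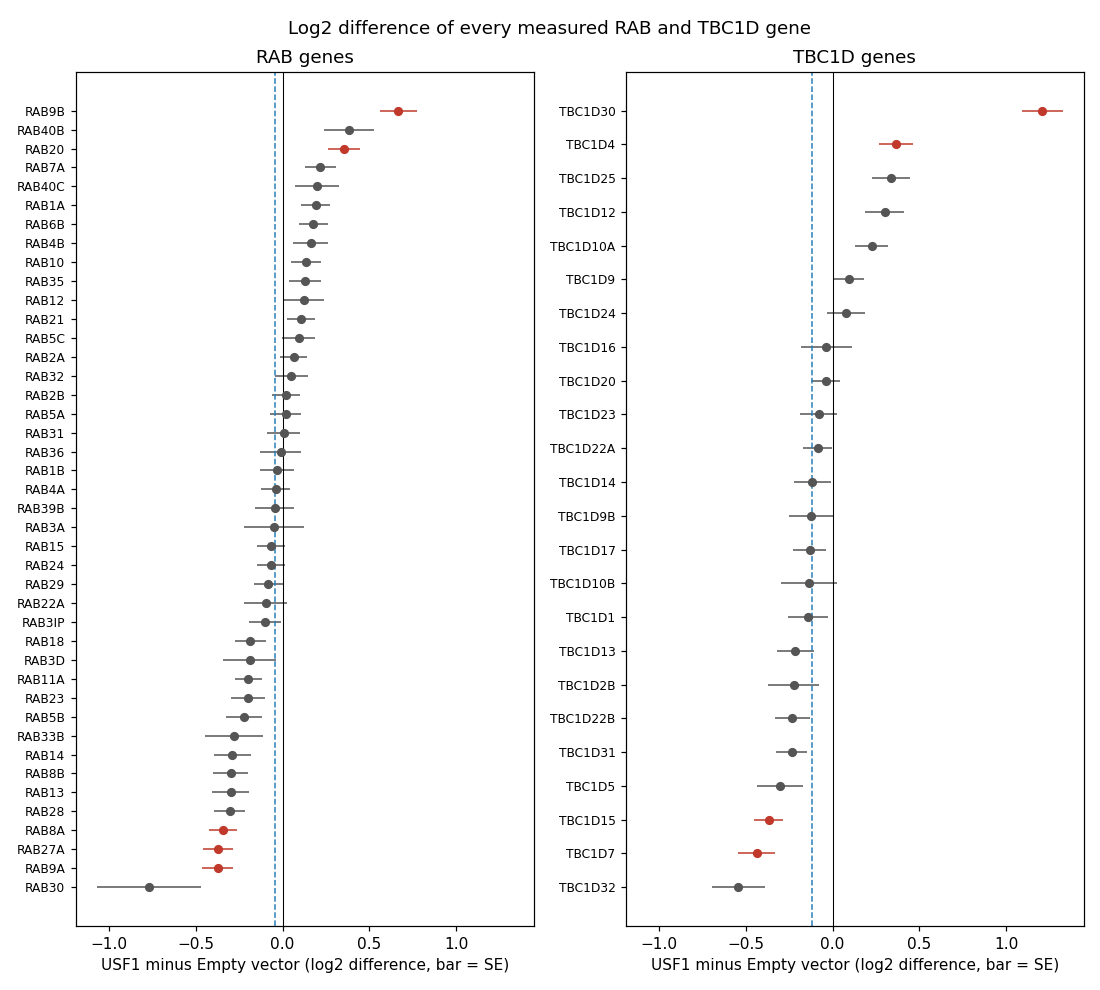
Log2 difference, USF1 minus Empty vector (horizontal axis, log2) with its standard error (bar) for each of 42 RAB genes (left) and 24 TBC1D genes (right), sorted, with red for an adjusted p-value from limma under 0.05 and a dashed line at the median of the family. Differences run from -0.77 to 0.67 for RAB and from -0.54 to 1.21 for TBC1D genes, and the 4 red points right of 0 and the 5 left of it stand at or near the ends.

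Empty vector replicate 1 stood apart, and this array touches most of the results that follow. Over all probesets the SD of its difference to either other array of the group was 0.336, against 0.182 between those, and pairs of USF1 arrays differed by 0.149 to 0.222. It was the highest Empty vector array in 8 of the 9 genes that passed, in 38 of the 66 (57.6%) and in 57.9% of all named genes. The 5' minus 3' value of the actin control, which falls as RNA degrades, was -0.68 to -0.49 in USF1 arrays and -1.34, -1.04 and -0.52 in Empty vector replicates 1, 2 and 3. That of the GAPDH control was -0.345 to -0.322 in USF1 arrays and -0.582, -0.316 and -0.256 in Empty vector replicates 1, 2 and 3. Replicate 1 was thus the lowest in both controls, and replicate 2 was low in actin alone. The part of RNA quality in the differences below was not tested. The probeset of *USF1*, a gene that is present in the cells as well as on the plasmid, did not pass at -0.071 (adjusted p-value = 0.836 from limma), and the plasmid holds the coding region alone, so that probes outside it do not read the plasmid transcript. Where these probes lie is not known here. The paper reports a western blot in which USF1 was over-expressed at the protein level. It also checked several changed genes by quantitative real-time PCR. Of 12 markers listed for HEK293T, 7 had a probeset of their own, with means from 4.32 (*EYA1*) to 10.37 (*NEFM*) in USF1 arrays and from 4.73 to 10.34 in Empty vector arrays. Of these 7, *EYA1* (4.32 in USF1 and 4.73 in Empty vector arrays), *GATA3* (5.42 in USF1 and 5.88 in Empty vector arrays) and *INA* (6.03 in USF1 and 6.42 in Empty vector arrays) passed as lower in USF1 cells, with adjusted p-values from limma of 0.0211, 0.0344 and 0.0240, and the other 4 did not pass. The 5 markers listed for other cell types (blood, liver, muscle, endothelium, fibroblast) had none and were not analysed here. No source says whether each array had a transfection of its own, so the p-values rest on a spread among arrays that may be technical in part or in whole. In bulk RNA a change in fewer cells and a smaller change in each cell cannot be told apart.

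*TBC1D30* had the largest difference of the 66 genes. In human cells it is known as a GTPase-activating protein for RAB8A that restrains the growth of primary cilia. Its log2 value was 5.40, 5.32 and 5.39 on the USF1 arrays, against 4.27, 4.31 and 3.91 on the Empty vector arrays. The USF1 arrays lay within 0.1 of each other and more than 1 unit above the highest Empty vector array. The difference was 1.21 (SE 0.12, adjusted p-value = 0.0016 from limma), a 2.31-fold rise, and 1.08 to 1.28 with each array left out in turn, called each time. *TBC1D30* is among the 25% of probesets with the lowest mean. Probesets with mostly absent calls had been removed by the authors, a filter that a gene detected in USF1 arrays alone could still pass.

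*RAB9B* rose while its near relative *RAB9A* fell. Both encode GTPases of late endosomes, and RAB9A is known for returning mannose 6-phosphate receptors to the trans-Golgi network. *RAB9B* lay at 5.04, 4.86 and 5.20 on the USF1 arrays, against 4.43, 4.39 and 4.28 on the Empty vector arrays, which is 0.67 apart (SE 0.11, adjusted p-value = 0.0094 from limma). It was called without each array in turn, at 0.59 to 0.75, and its probeset too is among the 25% with the lowest mean. *RAB9A* lay at 8.58, 8.66 and 8.59 on the USF1 arrays, against 9.11, 8.93 and 8.91 on the Empty vector arrays, which is -0.37 apart (SE 0.090, adjusted p-value = 0.0338 from limma). The groups did not overlap in either gene, and the gap was narrower in *RAB9A*. The call of *RAB9A* was lost without any 1 array but USF1 replicate 2, with adjusted p-values up to 0.188 over all alternatives, and at 0.0564 once arrays were centred on their medians.

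The other rises were small. *RAB20*, a RAB of endosomes and maturing phagosomes, lay at 6.08, 6.02 and 6.03 on the USF1 arrays, against 5.84, 5.61 and 5.62 on the Empty vector arrays (difference 0.35, SE 0.093, adjusted p-value = 0.0449 from limma). *TBC1D4*, known as AS160, the AKT substrate that holds back the glucose transporter GLUT4 in fat and muscle, lay at 6.70, 6.62 and 6.62 on the USF1 arrays, against 6.41, 6.31 and 6.12 on the Empty vector arrays (difference 0.37, SE 0.098, adjusted p-value = 0.0462 from limma). In both genes Empty vector replicate 1 was the Empty vector array nearest to the USF1 arrays. Without it the differences were 0.43 in both, and leaving out any 1 of the other arrays ended both calls, with adjusted p-values from limma up to 0.145 for *RAB20* and 0.149 for *TBC1D4*. The relative of *TBC1D4* in the same pathway, *TBC1D1*, had 4.52, 4.20 and 4.45 on the USF1 arrays, against 4.68, 4.44 and 4.47 on the Empty vector arrays. These overlap, and the difference was -0.14 (95% interval -0.40 to 0.12, adjusted p-value = 0.430 from limma).

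**Figure D2:**
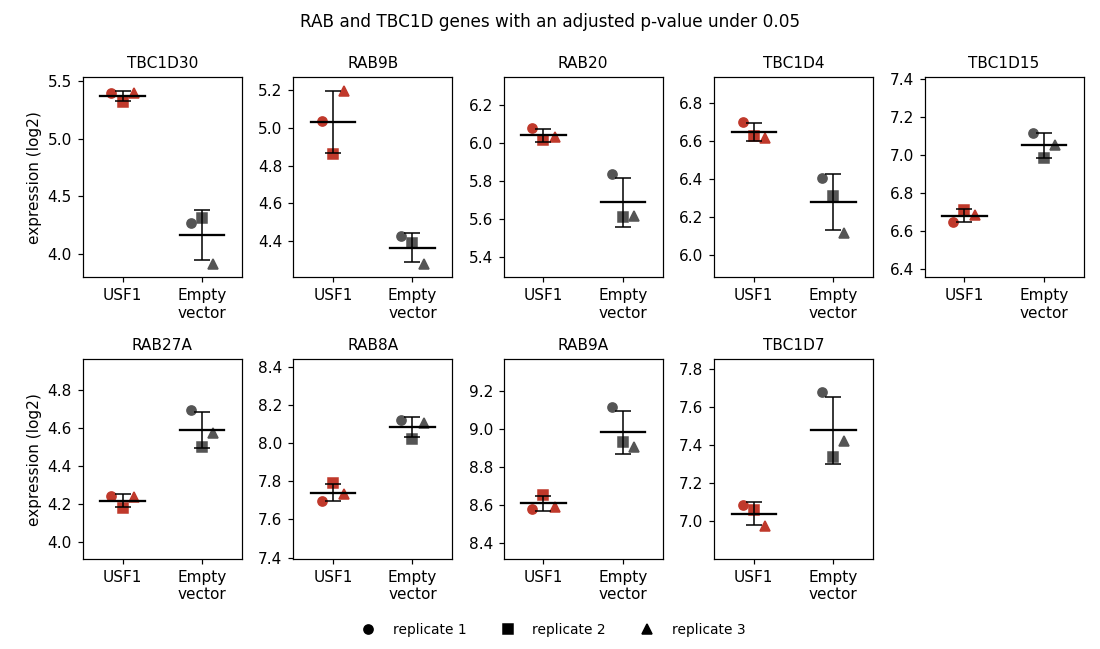
RMA expression (log2, vertical axis, with a range of its own in each panel) of the 9 genes that passed, 1 point per array with a shape for each replicate number, USF1 in red and Empty vector in grey, with the mean (long bar) and SD (error bar) of 3 arrays. The groups do not overlap in any panel, and the Empty vector circle, replicate 1, is the highest Empty vector point in all panels but *TBC1D30*.

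The 5 falls left between 73.8% and 78.8% of the Empty vector level on the linear scale. *TBC1D7*, a GTPase-activating protein by its domain that is best known as a subunit of the TSC complex, which restrains mTORC1, lay at 7.09, 7.06 and 6.98 on the USF1 arrays, against 7.68, 7.34 and 7.42 on the Empty vector arrays. Empty vector replicate 1 was the highest, and the lowest Empty vector array was still above all USF1 arrays. The difference was -0.44 (SE 0.11, adjusted p-value = 0.0345 from limma), and -0.34 without Empty vector replicate 1, the single array whose removal kept the call. *TBC1D15*, which acts on RAB7 and sits on mitochondria, lay at 6.65, 6.71 and 6.69 on the USF1 arrays, against 7.12, 6.98 and 7.05 on the Empty vector arrays. Neither group spread by more than 0.2, and the difference was -0.37 (SE 0.082, adjusted p-value = 0.0268 from limma). The call stood without USF1 replicate 2 and without Empty vector replicate 1 and was lost without any other array.

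*RAB8A*, which carries cargo from the trans-Golgi network to the cell surface and into the primary cilium, lay at 7.70, 7.79 and 7.73 on the USF1 arrays, against 8.12, 8.02 and 8.11 on the Empty vector arrays. The difference was -0.34 (SE 0.082, adjusted p-value = 0.0324 from limma), and the call stood without USF1 replicate 2 and was lost without any other single array. *RAB27A*, a RAB of secretory lysosomes and exosomes, lay at 4.24, 4.18 and 4.24 on the USF1 arrays, against 4.69, 4.50 and 4.58 on the Empty vector arrays. Its difference was -0.37 (SE 0.087, adjusted p-value = 0.0309 from limma), lost without any 1 of the 6 arrays and not shared by its other probesets. The groups did not overlap in either gene. None of the 5 falls passed once arrays were centred on their medians, where they were -0.37 to -0.28 with adjusted p-values from limma between 0.0509 and 0.0660, while the 4 rises passed there. A further quantile normalization kept all of these falls but that of *RAB27A* (adjusted p-value = 0.0506).

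**Figure D3:**
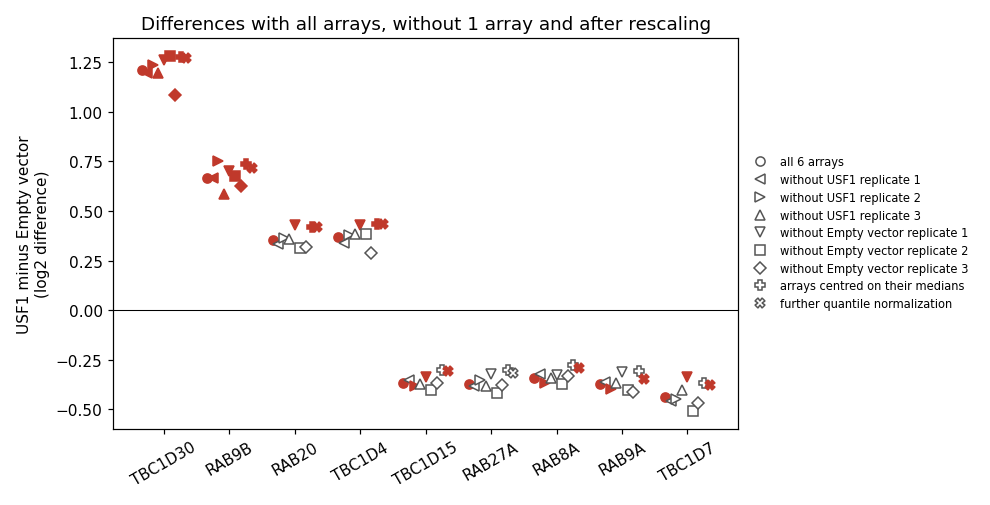
Log2 difference, USF1 minus Empty vector (vertical axis, log2) of the 9 genes that passed, with all 6 arrays, without each array in turn and after 2 ways of rescaling the arrays, with filled red symbols for an adjusted p-value from limma under 0.05 and open grey symbols otherwise. *TBC1D30* and *RAB9B* are red throughout, and the other 7 genes keep their sign but turn grey without at least 1 array.

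The RABs were also read by their address, and no group had all its genes pass. The groups were not tested. Of 8 RABs of the endoplasmic reticulum and Golgi none passed, with a median difference of -0.0055. *RAB1A*, which governs traffic into the Golgi, lay at 9.77, 9.76 and 9.81 on the USF1 arrays, against 9.65, 9.498 and 9.62 on the Empty vector arrays, without overlap, and did not pass at 0.19 (SE 0.084, adjusted p-value = 0.166 from limma). *RAB30*, a Golgi RAB, had the lowest difference of all at -0.77, but its arrays lay at 3.41, 4.37 and 3.26 in USF1 and 4.90, 4.36 and 4.09 in Empty vector cells. The groups overlapped and the SE was 0.30 (adjusted p-value = 0.121 from limma). Of 9 RABs of early endosomes, 1 rose (*RAB20*) and none fell, with a median of 0.018. *RAB5A*, which drives early endosome fusion, had a difference of 0.018 (95% interval -0.19 to 0.22), with 8.72, 8.81 and 8.71 on the USF1 arrays, against 8.75, 8.81 and 8.62 on the Empty vector arrays. The dimmer probeset of *RAB5A* lay at 0.22 (SE 0.13, adjusted p-value = 0.275 from limma).

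Of 8 RABs of recycling and delivery to the surface, 1 fell (*RAB8A*) and none rose, with a median of -0.24, and in 5 of the 8 the USF1 arrays lay below all Empty vector arrays, as they did in 27.5% of all named genes. This group was drawn up after values were seen. The 5 were *RAB8A*, its relative *RAB8B* (-0.30, SE 0.10), *RAB13* of tight junctions (-0.30, SE 0.11), *RAB14* (-0.29, SE 0.10) and *RAB11A* of recycling endosomes (-0.20, SE 0.079), of which the last 4 did not pass (adjusted p-values from limma between 0.0844 and 0.127). *RAB11A* had narrow groups, with 9.06, 9.11 and 9.11 on the USF1 arrays, against 9.31, 9.27 and 9.30 on the Empty vector arrays. A second probeset of *RAB14* lay at 0.17 (SE 0.19), with overlap between USF1 and Empty vector arrays. The other probesets of *RAB8B* and *RAB11A* had negative differences. *RAB10*, also of recycling and delivery to the surface, lay at 0.14 (SE 0.086). Of 5 RABs of late endosomes and lysosomes, *RAB9B* rose and *RAB9A* fell. *RAB7A*, the central late endosomal RAB, lay at 7.25, 7.26 and 7.38 on the USF1 arrays, against 7.08, 7.17 and 6.99 on the Empty vector arrays, without overlap, and did not pass at 0.22 (SE 0.090, adjusted p-value = 0.139 from limma). The other probeset of *RAB7A* lay at 0.0063 (SE 0.097), with overlap. Of 3 RABs of regulated secretion *RAB27A* passed with all arrays, the call described above as lost without any 1 of them, beside -0.19 for *RAB3D* and -0.050 for *RAB3A*. The 2 RABs of cilia, *RAB28* (-0.31) and *RAB23* (-0.20), did not pass.

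Close relatives other than the RAB9 pair did not both pass. Beside *RAB8A*, *RAB8B* had 5.70, 5.68 and 5.54 on the USF1 arrays, against 5.92, 6.08 and 5.81 on the Empty vector arrays. *RAB2A* and *RAB2B* lay at 0.063 and 0.019, *RAB1A* and *RAB1B* at 0.19 and -0.030, *RAB4A* and *RAB4B* at -0.040 and 0.16, and *RAB5A*, *RAB5B* and *RAB5C* at 0.018, -0.22 and 0.092. *RAB40B* and *RAB40C*, RABs with a SOCS box that join ubiquitin ligases, lay at 0.38 (SE 0.14) and 0.20 (SE 0.13). The differences between relatives were not tested.

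The 20 other TBC1D genes ranged from -0.54 to 0.33 and did not pass. *TBC1D32*, a ciliary protein of Hedgehog signalling, came nearest, with 3.80, 4.23 and 3.93 on the USF1 arrays, against 4.55, 4.77 and 4.27 on the Empty vector arrays (difference -0.54, SE 0.15, adjusted p-value = 0.0531 from limma). The highest USF1 array stood just below the lowest Empty vector array. *RAB28*, a RAB of cilia and photoreceptors, lay at -0.31 (SE 0.091, adjusted p-value = 0.0617 from limma), with 7.01, 7.07 and 6.93 on the USF1 arrays, against 7.28, 7.42 and 7.22 on the Empty vector arrays. *TBC1D25*, which acts on RAB33B in autophagy, lay at 5.37, 5.28 and 5.29 on the USF1 arrays, against 5.06, 4.76 and 5.11 on the Empty vector arrays, and *RAB40B* at 7.51, 7.29 and 7.43, against 7.36, 6.90 and 6.83. *TBC1D25* did not overlap between the groups (0.33, SE 0.11) while *RAB40B* did. The dimmer probeset of *TBC1D25* lay at -0.064 (SE 0.14), with overlap. Over all 66 genes, 43 had a 95% interval within 0.5 log2 units either side of 0.

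Where a gene had several probesets, they did not always tell the same story. Of 34 such genes, 22 had the same sign in all probesets and 12 had both signs. Among the 116 probesets 5 were called higher and 6 lower, together 9.48%, and 2 of these did not stand for their gene. One was the dimmer probeset of *RAB40B* (0.33, SE 0.079, adjusted p-value = 0.0342 from limma), whose brighter one had nearly the same difference with a wider spread. The other was a probeset of *RAB23*, a regulator of Hedgehog signalling, at -0.61 (SE 0.14, adjusted p-value = 0.0275 from limma), with 4.93, 4.96 and 4.45 on the USF1 arrays, against 5.37, 5.44 and 5.36 on the Empty vector arrays, while the brightest had -0.20 and the dimmest -0.36. *TBC1D4* had 0.37 and 0.35 in its 2 probesets, of which the second missed the threshold (adjusted p-value = 0.0616 from limma). The 4 probesets of *RAB27A* gave -0.37, -0.021, -0.20 and 0.068, and 1 of the 4 passed. That probeset, like the called ones of *RAB40B* and *RAB23*, carries the suffix that the manufacturer gives to probesets that may bind other transcripts. *RAB28* had 3 probesets between -0.38 and -0.16, none called. *TBC1D9B* had 4 between -0.32 and -0.12, none called.

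**Figure D4:**
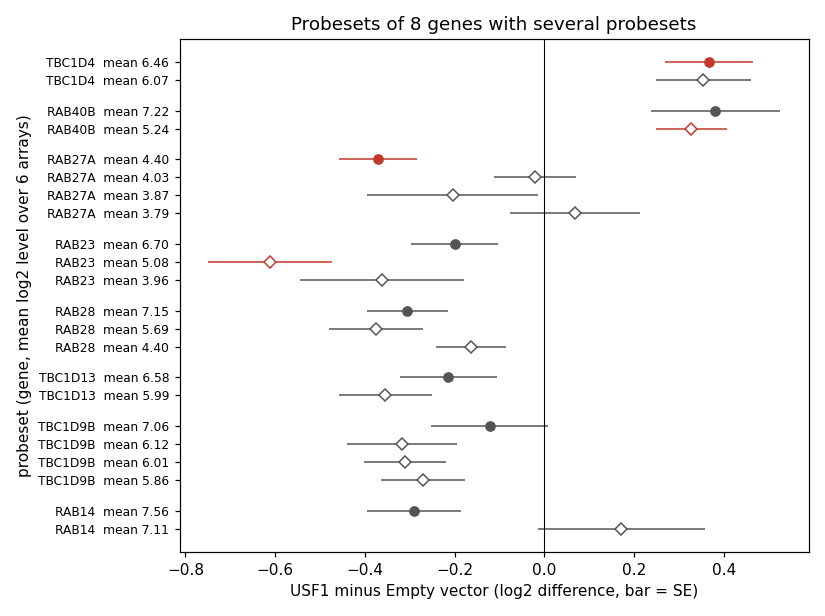
Log2 difference, USF1 minus Empty vector (horizontal axis, log2) with its standard error (bar) for each probeset of 8 genes, labelled with its mean log2 level over 6 arrays, with circles for the probeset that stands for the gene, diamonds for the others and red for an adjusted p-value from limma under 0.05. The probesets of *TBC1D4* and *RAB40B* lie right of 0 and those of *RAB28*, *RAB23* and *TBC1D9B* left of it, while those of *RAB27A* and *RAB14* lie on both sides.

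Genes that act on RAB proteins or answer to them were read from 5 lists. Of 116 measured genes on these lists, 6 rose and 9 fell, close to the share over all named genes, and the median difference was -0.074. None of 8 genes of the general RAB cycle passed, such as the GDP dissociation inhibitor *GDI2* (0.11) and the prenyl transferase subunits *RABGGTA* (-0.084) and *RABGGTB* (0.17). The median of this list was -0.055. At an unadjusted p-value under 0.05, 2 of its genes were lower, *ICMT*, which methylates prenylated proteins (-0.24), and *RABIF* (-0.23). At that cut-off 2289 of the 9586 named genes were lower.

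Of 50 measured effectors, 4 rose and 3 fell. *RILP*, the RAB7 effector that brings dynein to late endosomes, lay at 6.07, 5.94 and 6.10 on the USF1 arrays, against 5.40, 5.07 and 5.18 on the Empty vector arrays. *MICAL2*, an actin-oxidizing enzyme whose relative MICAL1 binds RABs, lay at 5.45, 5.38 and 5.43 on the USF1 arrays, against 4.68, 4.73 and 4.42 on the Empty vector arrays. In both genes the lowest USF1 array was over 0.5 above the highest Empty vector array, and limma gave 0.82 for *RILP* (SE 0.11, adjusted p-value = 0.00528) and 0.81 for *MICAL2* (SE 0.10, adjusted p-value = 0.00439). *INPP5B*, an inositol phosphatase that binds several RABs, fell to 4.89, 4.75 and 4.65 on the USF1 arrays, against 5.35, 5.35 and 5.36 on the Empty vector arrays (difference -0.59, SE 0.091, adjusted p-value = 0.00825 from limma), in 1 of its 2 probesets, the other lying at -0.061. *RILP*, *MICAL2* and *INPP5B* were called without each array in turn. Among the synaptotagmin-like proteins, which bind RAB27 on secretory granules, *SYTL1* (0.53, SE 0.10) and *SYTL5* (0.44, SE 0.093) rose and *SYTL4* (-0.61, SE 0.12) fell. The exocyst subunit *EXOC6B* fell as well (-0.49, SE 0.11). Leaving out 1 of the 6 arrays at a time kept the call of *SYTL1* and *SYTL4* in 3 of 6 fits and that of *SYTL5* and *EXOC6B* in 2 of 6. Adjusted p-values from limma of these 4 genes were between 0.0187 and 0.0276.

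Of 41 exchange factors and subunits of exchange complexes, 1 rose and 2 fell. The TRAPP complex, which activates RAB1, had its subunit *TRAPPC2L* higher (0.40, SE 0.10) and *TRAPPC2* lower (-0.32, SE 0.083). *DENND4C*, which activates RAB10, was lower (-0.35, SE 0.087), with -0.28 in its second probeset, which did not pass. Of 11 other genes with a TBC domain or a GTPase-activating role toward RABs or RHEB, *EVI5* rose (0.32, SE 0.082), and *GRTP1* (-0.49, SE 0.12) and *TBCK* (-0.47, SE 0.13) fell. Of 6 RAB-like genes, none rose and 2 fell, the intraflagellar transport GTPases *IFT27* (-0.56, SE 0.13) and *IFT22* (-0.33, SE 0.083, in 1 of its 2 probesets, the other lying at -0.020). Adjusted p-values from limma of these 8 genes were between 0.0280 and 0.0461. Leaving out 1 of the 6 arrays at a time kept the call of *TRAPPC2L* and *IFT27* in 2 of 6 fits. That of *DENND4C*, *TBCK* and *GRTP1* was kept in 1 of 6, and that of *TRAPPC2*, *EVI5* and *IFT22* in 0 of 6.

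**Figure D5:**
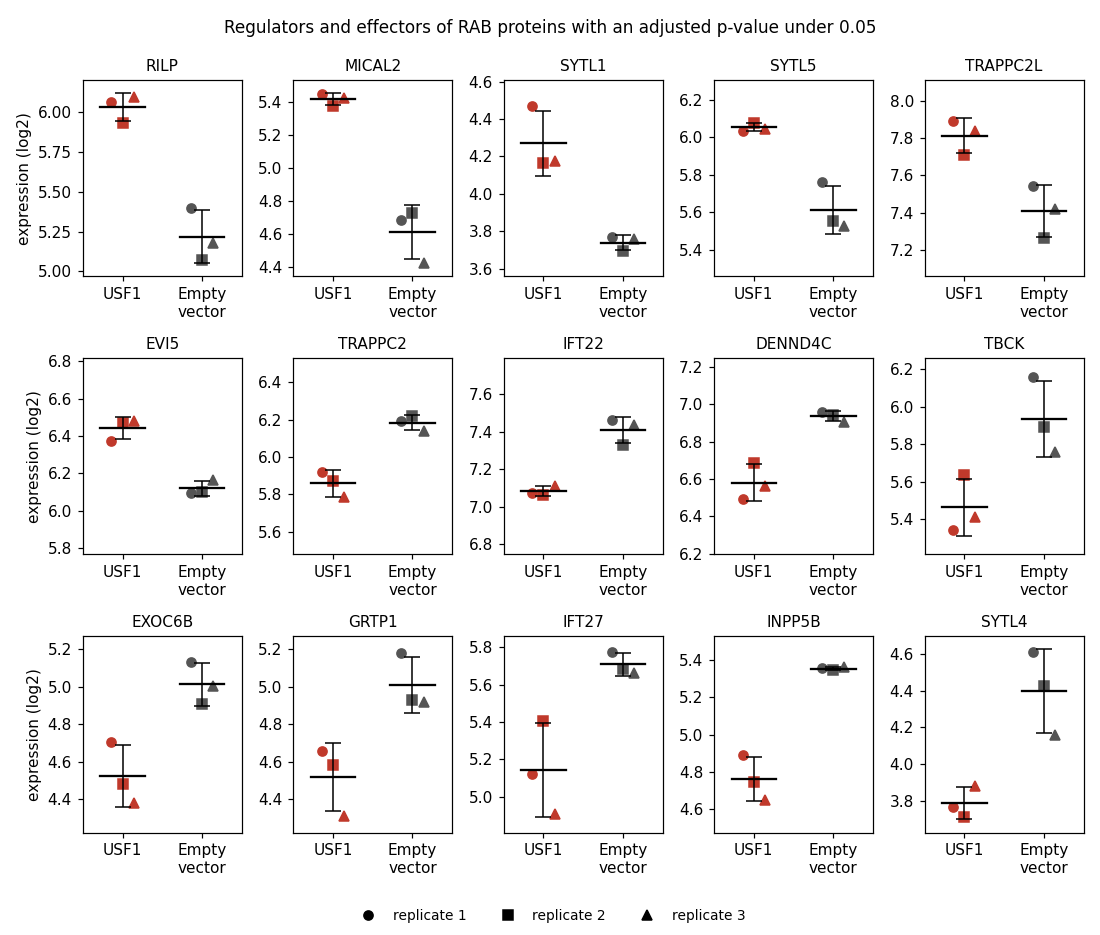
RMA expression (log2, vertical axis, with a range of its own in each panel) of the 15 regulators and effectors that passed, sorted from the largest rise to the largest fall, 1 point per array with a shape for each replicate number, USF1 in red and Empty vector in grey, with the mean (long bar) and SD (error bar) of 3 arrays. The groups do not overlap in any of the 15 panels, and *MICAL2*, *RILP* and *INPP5B* have the smallest adjusted p-values (0.00439, 0.00528 and 0.00825).

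USF1 is known to bind the E-box CACGTG, so these letters were looked for in promoters. RefSeq promoter windows of GRCh38.p14, from 250 bases before to 50 bases after the start, were at hand for 52 of the 66 genes, among them 6 of the 9 that passed. CACGTG, which reads the same on both strands, was in 9 of the 52 windows (17.3%), against 10.8% of the 8067 windows of genes measured here and 7.43% of all 27305 windows. It was in 1 of the 6 windows of genes that passed and in 8 of the 46 of those that did not. Over all measured genes it was in 15.0% of the windows of genes that rose and 7.88% of those that fell. The longer CACGTGAC, searched with its reverse GTCACGTG and holding the shorter motif, was in 7 of the 52 windows, against 4.92% of the measured genes and 2.53% of all. A match is a description of these letters, not of binding.

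The stretches around the motif are shown for the gene that passed and for 4 that did not, each on the strand of its gene, with the motif in capitals. They end at the start of the gene at the latest.
TBC1D15: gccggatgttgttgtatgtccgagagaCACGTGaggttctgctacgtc
TBC1D13: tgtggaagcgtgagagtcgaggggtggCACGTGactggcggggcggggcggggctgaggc
RAB5A: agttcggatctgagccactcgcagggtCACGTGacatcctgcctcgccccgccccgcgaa
RAB21: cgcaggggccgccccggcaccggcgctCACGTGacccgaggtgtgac
RAB24: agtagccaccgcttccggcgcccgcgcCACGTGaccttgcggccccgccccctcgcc

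The stretch of *TBC1D15* is chr12:71839711-71839758 on the plus strand, with the motif at -21 from the start, and its difference was -0.37. The stretch of *TBC1D13* is chr9:128787147-128787206 (plus, motif at -79), and its difference was -0.21 (SE 0.11, adjusted p-value = 0.214 from limma). The stretch of *RAB5A* is chr3:19946949-19947008 (plus, motif at -121), and its difference was 0.018. The stretch of *RAB21*, a RAB of early endosomes that regulates integrin traffic, is chr12:71754816-71754862 (plus, motif at -20), and its difference was 0.11 (SE 0.081, adjusted p-value = 0.394 from limma). The stretch of *RAB24* is chr5:177303720-177303776 (minus, motif at -30), and its difference was -0.068 (SE 0.082, adjusted p-value = 0.606 from limma). The motif thus stands close to the start in genes with differences on either side of 0, and the 4 genes other than *TBC1D15* did not pass.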

How the data were processed

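The authors ran justRMA in R 2.8.0 with a masked chip description, dropped probesets with fewer than 7 probes left or over 50% absent calls, and corrected batches, which no source here names, with ComBat. The authors deposited log2 expression values of 16569 probesets, with array medians of 5.88 to 6.00. From these the contrast of USF1 minus Empty vector was fitted in R 4.3.3 with lmFit and eBayes of limma 3.58.1 (prior of 4.53 degrees of freedom) over all probesets, with Benjamini-Hochberg adjustment over all and a threshold of 0.05. The number of arrays limits the precision. Genes were named from the platform annotation, which gave 15099 probesets 1 gene, 570 several and 900 none, and 15098 of the first kind matched a GRCh38.p14 gene. Probesets of several genes were not used. The procedure was tested on simulated data.

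The genes, lists and tests were chosen with earlier results of these data known. Named were all members that passed, the 5 largest differences that did not, well studied members, and up to 4 called genes of each list. Groups by address, further genes and the promoters shown were chosen after values were seen. Alternatives were the methods' t-test, other priors, array weights, rescaling, leaving out dim probesets, a replicate block, the probeset with the largest variance and leaving out each array.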

Additional observations from a re-analysis of the deposited data

How the results depend on the processing

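Depth has no direct measure here, and 3 arrays a group limit the precision. *TBC1D30* and *RAB9B* are the 2 of the 9 called genes that passed without each array, and both are too dim to be tested when the 25% dimmest probesets are left out. The probesets of *RAB27A*, *RAB30*, *TBC1D32*, *TBC1D1*, *GRTP1*, *SYTL1*, *SYTL4*, *EXOC6B* and *USF1* are among these dimmest as well. With the methods' t-test and Benjamini-Hochberg adjustment no RAB or TBC1D gene passed (0 higher and 0 lower in each family, and 0 and 0 in the regulator lists). The paper's own list used p-values of at most 0.05 before adjustment, and its degrees of freedom are fractional, as in the unequal-variance form. At that cut-off this form had 6 RAB genes higher and 6 lower, and 2 TBC1D genes higher and 4 lower. It had 1160 of all 16569 probesets higher and 2259 lower. The equal-variance form had 6 RAB genes higher and 8 lower, and 3 TBC1D genes higher and 4 lower, with 1395 of all 16569 probesets higher and 2870 lower. With limma at the same unadjusted cut-off, 4 RAB genes were higher and 9 lower, and 5 TBC1D genes higher and 5 lower. Of all 16569 probesets, 1622 were higher and 3564 lower there. Over all probesets limma called 715 higher and 1259 lower after adjustment. The t-test called 84 higher and 76 lower with equal variances, and 0 and 1 with unequal ones. Array weights gave 1277 higher and 2411 lower probesets, 6 lower RAB genes and 18 lower regulators.

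Centring the arrays on their medians moved the median of all probesets to 0.0039, against -0.065 as deposited. It left 815 lower probesets, 0 lower RAB, 0 lower TBC1D genes and 5 lower regulators, with 5 members higher and 0 lower. A further quantile normalization gave 5 members higher and 4 lower, and 5 lower regulators. The RAB median, -0.043 as deposited, was 0.026 after centring and 0.010 after quantile normalization. Without the dimmest probesets 1 RAB and 1 TBC1D gene were higher, and with the probeset of largest variance 1 TBC1D gene was higher. The cause of these shifts was not tested.

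The replicate numbers were also used as a block. Arrays of the same number had correlated deviations of 0.096, 0.25 and 0.13, each array correlating best with its own number, a hint from the data and not from the design. With the replicate block 908 probesets were higher and 1967 lower, 4 members were higher and 7 lower, with *RAB28* and *TBC1D32* added, and 17 regulators were lower.

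Leaving out 1 array at a time gave 219 to 877 higher and 147 to 1569 lower probesets. It gave 1 to 3 higher and 0 to 3 lower RAB genes, 1 to 2 higher and 0 to 2 lower TBC1D genes, and 2 to 5 higher and 1 to 9 lower regulators. The median difference ran from -0.062 to -0.0019 for RAB and from -0.17 to -0.046 for TBC1D genes. Genes near 0 changed sign without being called: *RAB5A* ran from -0.036 without Empty vector replicate 3 to 0.060 without Empty vector replicate 2 (-0.015 without USF1 replicate 2), *USF1* was -0.32, 0.037 and 0.070 without Empty vector replicates 1, 2 and 3, and *TBC1D1* was 0.053 in its probeset of largest variance. Among 503 values of named genes under alternatives, 346 kept their direction and side of the threshold, 139 lost and 13 gained the call, and 5 changed sign.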

Other observations

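RAB and TBC1D names also occur in 9 probesets that the annotation gives to several genes, which no comparison above used. None passed in the limma fit. The probeset shared by *RAB34* and *NARR*, an overlapping reading frame, had a difference of 0.076 (SE 0.089), and the 3 shared by *RAB4B* and a read-through transcript with *MIA* had -0.12, -0.037 and 0.13, where the probeset of *RAB4B* alone had 0.16.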
